A study of Mus musculus with 4 samples.

Results

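Heat shock proteins and cytosolic chaperones are the proteins that help other proteins reach and keep their folded shape. Members were chosen by gene name from the table of the study: the Hspa, Hspb, Hspd, Hspe and Hsph genes, the Hsp90a genes, the Dnaja, Dnajb and Dnajc genes, the Cct genes with Tcp1, and Hsf1, Hsf2, Bag3, Stip1, Chordc1 and Ahsa1, leaving out the endoplasmic reticulum stress genes Hspa5, Dnajb9 and Dnajc3. This gave 84 of the 24216 rows, and 82 of the 84 were tested by the authors, the others being Hspb3 and Dnajc5b. The name rule also brings in genes that act outside the cytosol, such as Hspa9, Hspd1, Hspe1, Dnajc11, Dnajc15, Dnajc19 and Dnajc30 in mitochondria and Dnajb11 in the endoplasmic reticulum.

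The 4 libraries, 2 of molar pulp and 2 of incisor pulp, were made from mice of the XLacZ4 strain, which carries a transgene that makes beta-galactosidase in the mural cells of small vessels. Both groups share that transgene and a single protocol text, which names molars for all 4 libraries: teeth were taken apart into single cells, stained with the beta-galactosidase substrate FDG, and positive cells were sorted. Mouse incisors grow throughout life and molars do not, and the series compares the sorted cells of the one with those of the other. The labels give no age or treatment and do not say whether libraries came from separate animals or from pools.

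The deposited table holds 1 FPKM value per tissue (sequenced fragments scaled by transcript length and by the depth of the library), in which the libraries of that tissue are already combined. Every FPKM, fold and q below is the authors' value from that table, carries no replicate error here, and has an unknown depth behind it. A gene is named "called" where the authors' q lay under 0.05. The type of tooth cannot be told apart from differences in how its cells were sorted, prepared or sequenced, and in bulk values fewer cells of a type cannot be told apart from less RNA per cell.

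Hsp70 proteins hold exposed stretches of unfolded proteins in a cycle driven by ATP. J-domain proteins deliver the client and start the cycle, Hsp110 and other exchange factors end it, and the client may pass to Hsp90 through the adaptor encoded by Stip1. Small heat shock proteins hold unfolding proteins without ATP, and the ring-shaped chaperonin TRiC folds actin and tubulin, which are abundant in contractile mural cells. The transcription factor HSF1 drives many of these genes under heat or protein stress by binding heat shock elements, which are alternating GAA and TTC blocks.

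Heat shock elements are shown here because HSF1 binds them to drive many of these genes, although the group itself was chosen by gene name. Of the 84 genes, 68 had a promoter in the RefSeq table of GRCm38.p6, covering 250 bases before to 50 bases after each start. Genes without one, among them Hspa8, Hsp90aa1, Hsp90ab1 and Hsf1, were not searched. An element of 3 alternating blocks with any pair of bases between neighbours (GAA, TTC, GAA or TTC, GAA, TTC, each being the other read on the opposite strand, overlaps allowed) lay in 5 of these 68 (7.35%), against 179 of all 27025 symbols (0.662%). Elements of 2 such blocks in either order lay in 22 of the 68 (32.4%) and in 17.0% of all symbols. A match is a description of the letters, not a shown binding site. The 5 genes with 3 blocks are Hspe1 and Hspd1, which lie head to head and share the element, Dnajb6, Hsph1 and Chordc1. The stretches follow, 5′ to 3′ on the strand of the gene, with the blocks and the bases between them in capitals. For Hsph1, which has 2 listed starts, the element begins at base 16 or 37 of the transcript. For Dnajb6, also with 2 starts, it begins 46 or 127 bases before the start, and for Chordc1 it starts 4 bases before the start site and runs into the transcript.
Hspe1, chr1:55088034-55088101, plus strand: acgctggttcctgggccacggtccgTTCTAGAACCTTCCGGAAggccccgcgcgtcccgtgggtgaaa
Dnajb6, chr5:29735827-29735889, plus strand: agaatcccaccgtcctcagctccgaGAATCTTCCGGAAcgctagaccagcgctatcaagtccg
Hsph1, chr5:149636285-149636303, minus strand: agaTTCTGGAAAGTTCtcc
Chordc1, chr9:18292260-18292288, plus strand: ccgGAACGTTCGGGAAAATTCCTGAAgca
These 5 genes did not go one way: Hsph1 and Chordc1 were called higher in incisor, Dnajb6 was called higher in molar, and Hspd1 and Hspe1 were not called.

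By the authors' deposited table, 13 of the 82 tested chaperone genes were called higher in molar (15.9%), 5 were called higher in incisor (6.10%) and 64 were not called. Over all 18770 tested rows, 11.9% were called on the molar side and 4.28% on the incisor side. The chaperone shares were thus near those of the table as a whole, and the list as a group was not set apart from it by these counts. The 13 genes higher in molar were Dnaja1, Dnajb1, Dnajb6, Dnajb11, Dnajc9, Dnajc15, Dnajc19, Dnajc24, Dnajc30, Hspb11, Cct4, Cct8 and Ahsa1. The 5 higher in incisor were Hsph1, Stip1, Chordc1, Cct3 and Dnajc11. Over genes that reached 1 FPKM in at least a single tissue, the median log2 of molar over incisor (with 1 FPKM added to each value) was 0.42 over 73 members and 0.14 over all 13198 such rows, but it turned to -0.093 when both tissues were scaled to equal FPKM totals.

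**Figure D1:**
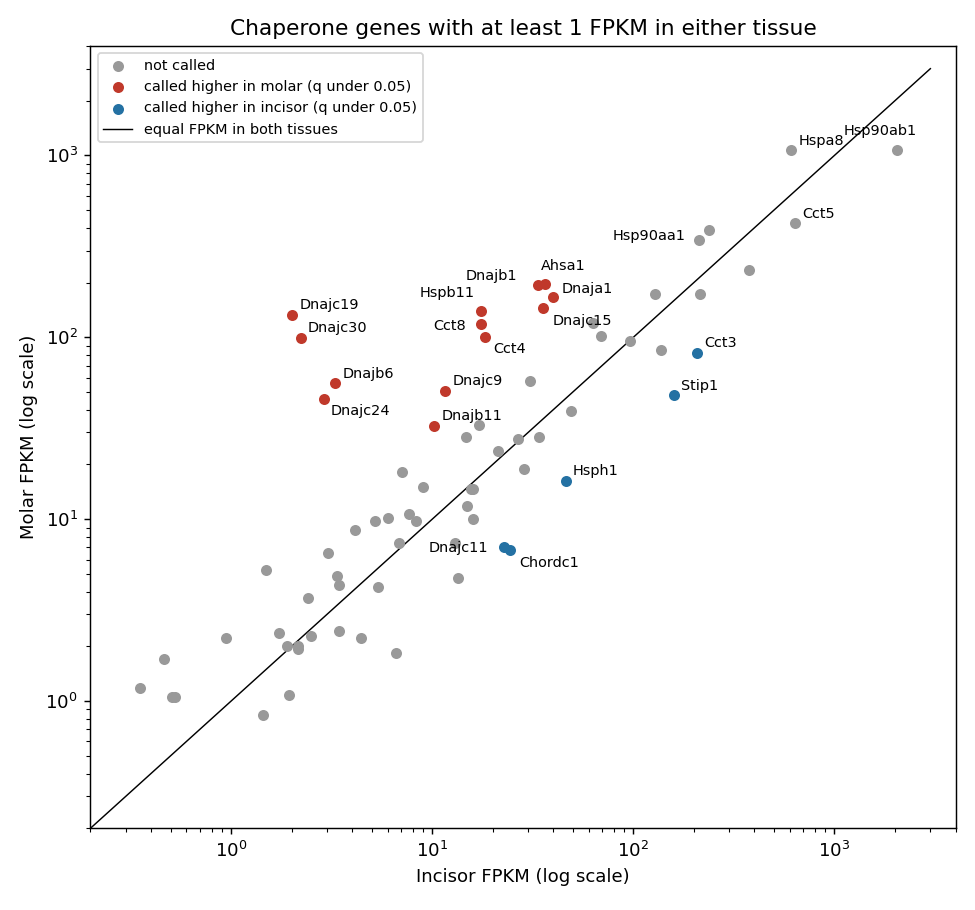
Each point is a chaperone gene with at least 1 FPKM in either tissue, with incisor FPKM across and molar FPKM up, both on log scales; the authors' table gives 1 value per tissue, so there are no error bars. Called genes are coloured and named, and most genes, with Hspa8, Hsp90aa1, Hsp90ab1 and Cct5 among the most abundant, lie near the line of equal values and were not called.

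The 4 largest folds toward molar among called chaperone genes belonged to the J-domain genes Dnajc19, Dnajc30, Dnajb6 and Dnajc24. By the authors' deposited table, 9 of 42 tested J-domain genes were called higher in molar (21.4%, against 11.9% of all tested rows), and Dnajc11 alone was called higher in incisor (2.38%, against 4.28%).

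In class A, whose proteins are general partners of Hsp70, Dnaja1 (chromosome 4, 40720154 to 40734965) stood at 39.9 FPKM in incisor and 167 in molar, a 4.19-fold difference with q = 0.000664. It was the only called gene of 4 (25%, against 11.9% of all tested rows), and its value is uncertain, with 31.0% of its 32-base words found in other transcripts. Its relatives were lower in level, with Dnaja2 at 8.97 in incisor and 14.98 in molar, the mitochondrial Dnaja3 at 6.87 and 7.44, and Dnaja4 at 4.43 and 2.23. The Dnaja4 value is uncertain too, as its row overlaps the coding gene Wdr61, and 52.2% of its 32-base words occur in other transcripts.

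In class B, Dnajb1 (chromosome 8, 83608175 to 83612653), the classical heat-inducible partner of Hsp70, stood at 33.5 FPKM in incisor and 193 in molar, 5.77-fold higher with q = 0.000664. Dnajb6 (chromosome 5, 29735334 to 29786478), which keeps aggregation-prone proteins soluble, stood at 3.30 in incisor and 56.1 in molar, 17.0-fold higher with the same q. Its value is uncertain, since 45.1% of the 32-base words of its transcript also occur in transcripts of other genes. Dnajb11, a partner of Hspa5 in the endoplasmic reticulum, had 10.2 in incisor and 32.7 in molar (q = 0.0139). Its row overlaps the coding gene Ahsg, so this value is uncertain too. The membrane-bound Dnajb12 and Dnajb14 lay just outside the threshold in the authors' deposited table, at q = 0.0525 and q = 0.0600, and were marked significant by the authors themselves. Their FPKM values were 7.10 in incisor and 18.1 in molar for Dnajb12, and 1.49 and 5.23 for Dnajb14. Neither Dnajb4 (15.9 and 14.6) nor Dnajb5 (2.49 and 2.28), both related to Dnajb1, was called. Class B had 3 of 12 tested genes called, all of them higher in molar (25%, against 11.9% of all tested rows). Its median log2 ratio was 1.24 over its 9 genes at 1 FPKM or more, but 0.81 over all 12, 0.69 at equal FPKM totals and 0.66 with 5 FPKM added to each value. Dnajb8, listed at 0 in incisor and at 0.212 in molar, was not called.

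Class C proteins share only the J-domain and have specialised tasks. The mitochondrial members were called in both directions. Dnajc19 (chromosome 3, 34020079 to 34081354), part of the motor that pulls proteins into mitochondria, stood at 2.01 FPKM in incisor and 133 in molar, 66.2-fold higher with q = 0.00508. Its relative Dnajc15 (chromosome 14, 77826217 to 77874917) stood at 35.6 in incisor and 144 in molar, 4.06-fold higher with q = 0.00124. In incisor the Dnajc15 value was therefore the higher of the pair by far, and in molar the values were close. Dnajc30 (chromosome 5, 135052957 to 135065365), which acts beside the ATP synthase, stood at 2.22 in incisor and 99.6 in molar, 44.9-fold higher with q = 0.000664. Dnajc11 (chromosome 4, 151933720 to 151981959), of the complex that shapes the inner membrane, went the other way, with 22.8 in incisor and 7.04 in molar (3.23-fold, q = 0.0262). The interval of the Dnajc19 row overlaps the coding gene Fxr1, and that of the Dnajc30 row overlaps Bud23, whose transcripts hold 24.8% of its 32-base words. Both values are uncertain for that reason.

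Outside mitochondria, Dnajc24, needed to make the modified histidine of elongation factor 2, stood at 2.89 FPKM in incisor and 45.8 in molar (15.9-fold, q = 0.000664). Dnajc9, a partner of histones, stood at 11.6 in incisor and 50.8 in molar (4.39-fold, q = 0.000664). The highest class C level was that of the splicing-associated Dnajc8, with 215 in incisor and 172 in molar, which was not called. Dnajc7, which binds both Hsp70 and Hsp90, stood at 69.3 and 102.0, and the vesicle protein gene Dnajc5 at 15.9 and 10.03, neither of them called. By the authors' deposited table, 5 of 26 tested class C genes were called on the molar side (19.2%, against 11.9% of all tested rows) and Dnajc11 on the incisor side (3.85%, against 4.28%). The class median log2 ratio was 0.43 over 23 genes, but it turned to -0.093 at equal FPKM totals. Dnajc5g, listed at 0 in incisor and at 0.193 in molar, was not called.

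The Hsp70 genes themselves were not called, although some of their partners were. None of the 12 Hspa genes passed the threshold in the authors' deposited table, and the Hsp110 gene Hsph1 was the 1 called gene of 13 in this family. That is 7.69% on the incisor side, against 4.28% of all tested rows, and none on the molar side, against 11.9%. Hspa8, the constitutive Hsp70 (chromosome 9, 40801273 to 40805199), was the most abundant, with 610 FPKM in incisor and 1066 in molar (q = 0.252). The heat-inducible Hspa1a stood at 62.8 in incisor and 119.7 in molar (q = 0.138) and its near copy Hspa1b at 26.8 and 27.7 (q = 0.875). Hspa1a shares 69.9% of its 32-base words with other transcripts, Hspa1b 67.8% and Hspa8 79.4%, so reads may have been divided between copies and pseudogenes and these values are uncertain. The mitochondrial Hspa9 stood at 15.5 and 14.7, and Hspa14, which sits on ribosomes, at 49.1 and 39.4. Among the lowest were Hspa12a (0.846 in incisor and 0.457 in molar) and Hspa4l (0.462 and 1.70), neither called. The family median log2 ratio of 0.10 turned to -0.11 with the median of all genes set to 0 and to -0.46 at equal FPKM totals, so no direction is given for it.

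Hsph1 (chromosome 5, 149616845 to 149636315), which releases ADP from Hsp70 and helps to dissolve aggregates, stood at 46.1 FPKM in incisor and 16.3 in molar. By the authors' deposited table that was 2.83-fold higher in incisor, with q = 0.0232. Relative to Hspa8 of the same tissue, a ratio that no scaling between tissues can alter, Hsph1 was at 0.0757 in incisor and 0.0153 in molar. Dnajb1 relative to Hspa8 went the other way, at 0.0549 in incisor and 0.181 in molar. By the authors' calls, too, the exchange factor Hsph1 and the J-domain partner Dnajb1 lay on opposite sides.

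Of the 9 chaperone families, Hsp90 had the highest FPKM sum in both tissues, 2268 in incisor and 1418 in molar, from only 2 genes. Hsp90ab1, the constitutive form (chromosome 17, 45567778 to 45573261), stood at 2055 FPKM in incisor and 1076 in molar (q = 0.184). By FPKM it held rank 25 of all rows in incisor and rank 130 in molar. The inducible Hsp90aa1 stood at 213 in incisor and 342 in molar (q = 0.252). Neither was called, and their values lay in opposite directions, so that Hsp90ab1 exceeded Hsp90aa1 9.65-fold in incisor and 3.14-fold in molar. Of the 32-base words of Hsp90aa1, 62.6% occur in other transcripts, mostly of a pseudogene. Its value and the ratios that use it are uncertain.

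Some partners of Hsp90 were called, in both directions, and others, such as Cdc37 and Fkbp4 outside the group, were not. Ahsa1 (chromosome 12, 87266728 to 87273952), which speeds up the ATPase of Hsp90, stood at 36.2 FPKM in incisor and 196 in molar, 5.42-fold higher in molar with q = 0.000664. Stip1 (chromosome 19, 7020696 to 7040026), which joins Hsp70 to Hsp90, stood at 159.5 in incisor and 48.03 in molar. By the authors' deposited table it was 3.32-fold higher in incisor, with q = 0.0280. Chordc1 (chromosome 9, 18292267 to 18314000), an Hsp90-binding protein, stood at 24.3 and 6.73, 3.61-fold higher in incisor with q = 0.0170. Relative to Hsp90ab1 of the same tissue, Ahsa1 was at 0.0176 in incisor and 0.183 in molar, and Stip1 was at 0.0776 and 0.0446. The transcription factor Hsf1 was at 5.17 in incisor and 9.81 in molar (q = 0.252) and Hsf2 at 6.65 and 1.84 (q = 0.107). Bag3, an exchange factor that sends damaged proteins to autophagy, stood at 34.0 and 28.2 (q = 0.478). The 6 genes of this group had a median log2 ratio of -0.84 (-1.30 at equal FPKM totals and -0.50 with 5 FPKM added), with Ahsa1 called on the molar side and Stip1 and Chordc1 on the incisor side. These calls are 16.7% and 33.3% of so few genes, against 11.9% and 4.28% of all tested rows.

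**Figure D2:**
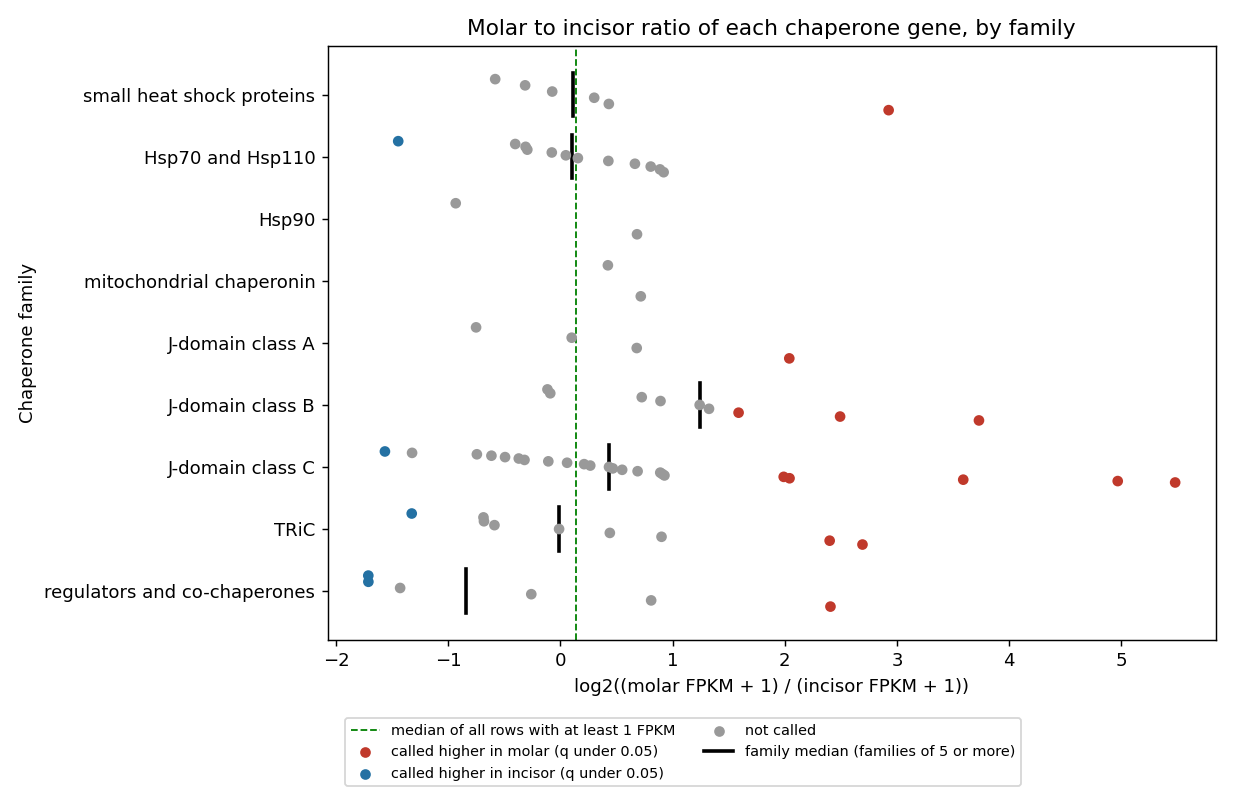
Each point is a chaperone gene with at least 1 FPKM in either tissue, placed by the log2 of molar over incisor FPKM with 1 added to each, in rows by family; black bars are medians of families with 5 or more such genes and the dashed line is the median of all rows. The J-domain classes B and C reach furthest to the molar side, up to 5.48 for Dnajc19, while the co-chaperones have the lowest median, -0.84.

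The genes of the chaperonin TRiC did not move together. TRiC is built from 8 different subunits in equal number, encoded by Tcp1, Cct2 to Cct5, Cct6a, Cct7 and Cct8. Cct8 (chromosome 16, 87454985 to 87495869) stood at 17.4 FPKM in incisor and 118 in molar, 6.78-fold higher in molar with q = 0.000664 in the authors' deposited table. Cct4 (chromosome 11, 22990593 to 23003336) stood at 18.2 and 100.4, 5.51-fold higher with q = 0.00124. Cct3 (chromosome 3, 88297135 to 88321766) stood at 207.6 in incisor and 82.3 in molar, 2.52-fold higher in incisor with q = 0.0402, the called chaperone gene closest to the threshold. The other subunit genes were not called. Of the 8, 2 were thus called on the molar side (25%, against 11.9% of all tested rows) and 1 on the incisor side (12.5%, against 4.28%). Tcp1 stood at 96.7 in incisor and 95.9 in molar, Cct2 at 137 and 84.95, Cct5 at 639 and 425, Cct7 at 377 and 235, and Cct6a at 17.2 and 32.9.

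In molar, Tcp1, Cct2, Cct3, Cct4 and Cct8 all lay between 82.3 and 118 FPKM, whereas in incisor the same genes lay between 17.4 and 207.6. This grouping was made on the molar values, and the other subunit genes lay outside that molar range. Cct5 stood at 425 FPKM in molar, Cct7 at 235 and Cct6a at 32.9. The highest subunit, Cct5, exceeded the lowest, Cct6a, 37.2-fold in incisor and 12.9-fold in molar. These ratios within a tissue do not depend on how the tissues were scaled to each other, but FPKM also depends on the transcript model, and the replicate error of these ratios is unknown. Cct6b (0.509 and 1.05) and Cct8l1 (0.327 and 0.579), relatives of TRiC subunits, were low in both tissues and not called. The interval of the Cct8 row overlaps the coding gene Usp16, which shares 6.81% of its 32-base words, and Cct4 overlaps no other coding gene and shares 3.26%. More is shared by other subunits. The Tcp1 row overlaps Acat3 and Mrpl18 and shares 24.5%, and that of Cct6a overlaps Psph and shares 17.4%. The Cct7 row overlaps Pradc1 and shares 14.7%, and Cct3 overlaps no other coding gene but shares 12.2%. These values, and ratios that use them, are uncertain.

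**Figure D3:**
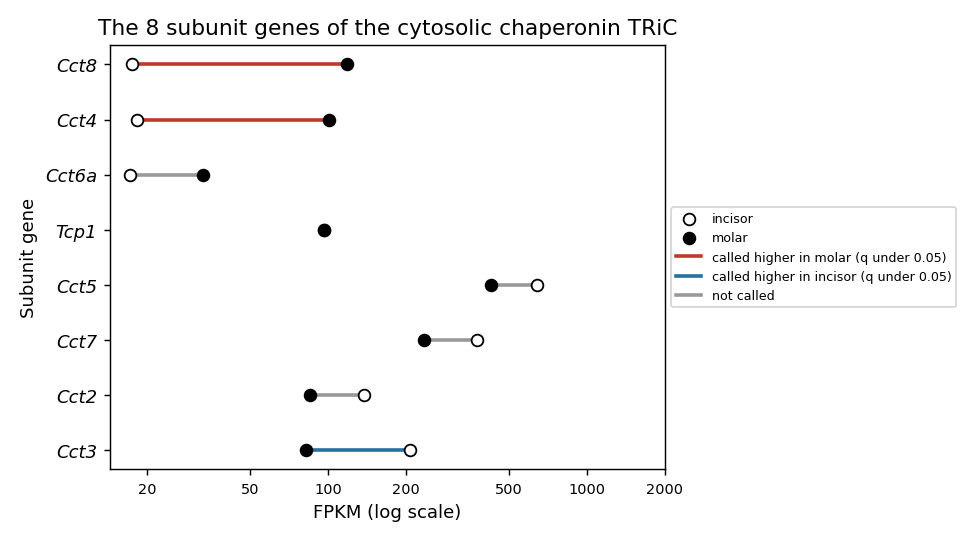
Open circles are incisor and filled circles molar FPKM on a log scale for the 8 TRiC subunit genes, ordered by their molar to incisor ratio, with 1 value per tissue and lines coloured by call. Cct8 and Cct4 are far lower in incisor than in molar, Cct3 is lower in molar, and the values of Tcp1 coincide.

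The mitochondrial chaperonin genes Hspd1 and Hspe1 were not called, and the pair kept a similar proportion in both tissues. They are the ring and its lid, and are read in opposite directions from the stretch shown above. Hspd1 stood at 129 FPKM in incisor and 173 in molar (q = 0.337), and Hspe1 at 237 and 390 (q = 0.205). Hspe1 exceeded Hspd1 1.84-fold in incisor and 2.26-fold in molar. Transcripts of other genes hold 55.1% of the 32-base words of Hspd1 and 58.1% of those of Hspe1, and both values are uncertain.

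Among small heat shock protein genes, Hspb11 alone was called, 1 of 7 tested (14.3%, near the 11.9% of all tested rows on the molar side). Hspb11 (chromosome 4, 107253934 to 107279888) stood at 17.5 FPKM in incisor and 139 in molar, 7.97-fold higher in molar with q = 0.000664 in the authors' deposited table. Despite its name, its product is known as a subunit of the transport machinery of the primary cilium. The classical member Hspb1 stood at 28.7 in incisor and 18.9 in molar (q = 0.357), with 65.1% of its 32-base words in other transcripts. Hspb6, which is phosphorylated in relaxing smooth muscle, stood at 14.9 and 11.8 (q = 0.497), and Hspb8, the partner of Bag3, at 3.37 and 4.90 (q = 0.383). The lowest tested gene was Hspb9, with 0.105 and 0.807. The family median of 0.11 turned to -0.035 with the median of all genes set to 0 and to -0.26 at equal FPKM totals.

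Genes known as targets of HSF1 were called on both sides. Of 21 tested genes on a list of 22, 4 were higher in molar (Dnajb1, Ahsa1, Dnaja1 and Cryab), 3 were higher in incisor (Stip1, Hsph1 and Chordc1) and 14 were not called, by the authors' deposited table. These are 19.0% on the molar side and 14.3% on the incisor side, against 11.9% and 4.28% of all tested rows. In all, 19 of the listed genes are also members of the chaperone group. Cryab, a small heat shock protein of muscle and lens, stood at 31.2 FPKM in incisor and 86.6 in molar (q = 0.0199). The list median log2 ratio of 0.42 turned to -0.16 at equal FPKM totals and to -0.077 less the median of all rows of the same transcript length class, so no direction is given for it. Ubb was marked by the authors as holding too much data and was not compared.

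**Figure D4:**
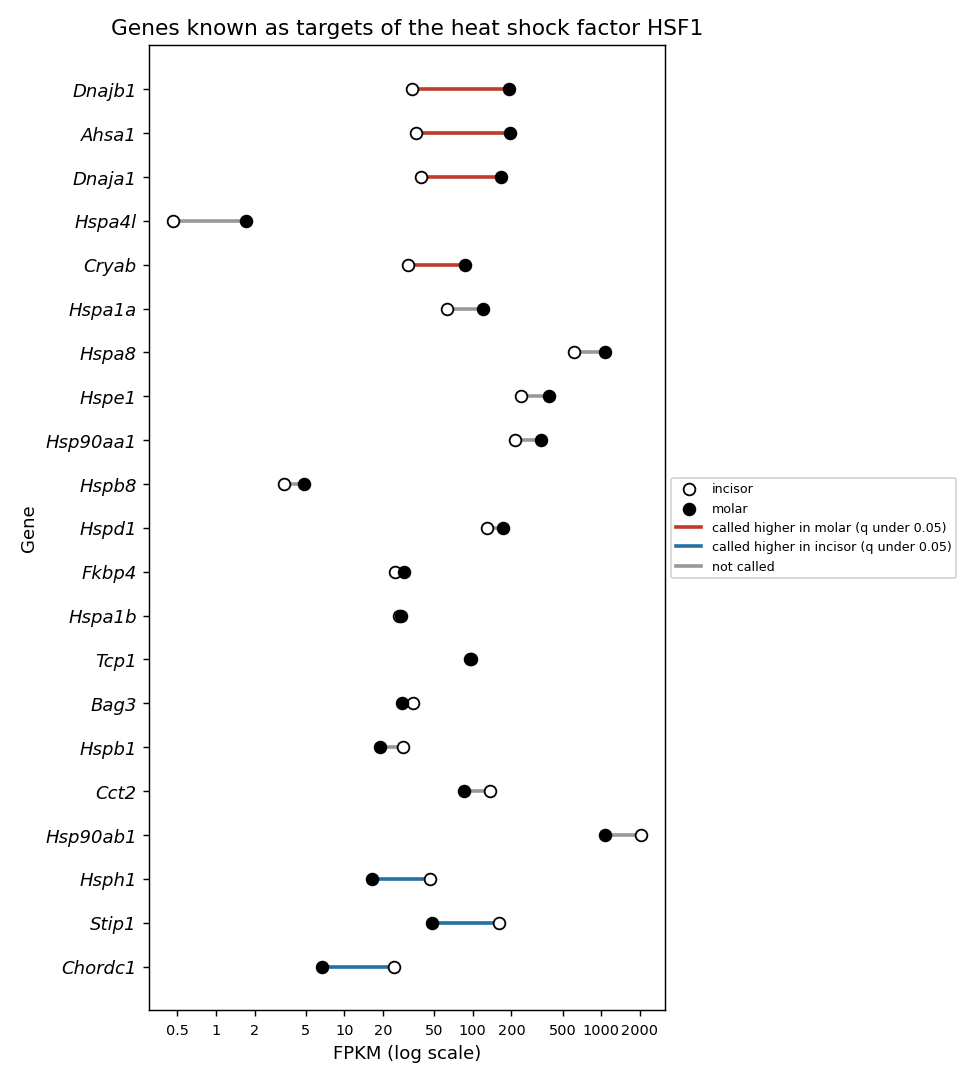
Open circles are incisor and filled circles molar FPKM on a log scale for the 21 tested genes on the list of HSF1 targets, ordered by their molar to incisor ratio, with 1 value per tissue and lines coloured by call. Called genes stand at both ends of the order, with the Hsp90 genes, the chaperonin genes and the Hspa genes between them, except that Hspa4l, not called, stands above the called Cryab.

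Other chaperones and co-chaperones, which the name rule does not hold, were, like all rows, called higher in molar more often than in incisor. By the authors' deposited table, 14 of 46 tested genes on a list of 48 were called higher in molar (30.4%, against 11.9% of all tested rows), and 2 were called higher in incisor (4.35%, against 4.28%). Higher in molar were the phosphatase Ppp5c (1.94 FPKM in incisor and 45.1 in molar), the prefoldin subunit Pfdn2 (14.3 and 131), the ubiquitin ligase Stub1 (13.7 and 119.6), the Hsp70 regulators Hspbp1 (6.05 and 38.3), St13 (30.2 and 133) and Bag6 (2.47 and 8.93), the mitochondrial exchange factor Grpel2 (4.23 and 16.5), the Hsp90 partner Sugt1 (22.2 and 79.2), the unfolding ATPase Vcp (1.71 and 12.3), the nascent chain factors Naca (281 and 1225) and Btf3 (454 and 1084), Cryab, and Hsf5 (0.309 and 1.74). The last of the 14, Zrsr2 (1.20 and 5.71), encodes a splicing protein and stood on the list in error. Higher in incisor were Ptges3, the Hsp90 co-chaperone p23 (224 and 51.2, q = 0.000664), and Pdcl, a TRiC cofactor (14.7 and 4.87, q = 0.0388). The list median log2 ratio was 0.65, against 0.14 over all rows, but 0.30 less the median of the length class and 0.078 at equal FPKM totals. Of the 3 endoplasmic reticulum genes left out by the rule, Dnajb9 stood at 2.94 and 29.5 (q = 0.000664) and Hspa5 (345 and 551) and Dnajc3 (5.06 and 9.07) were not called.

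Transcript length moved with the ratio over the whole table. Among tested rows at 1 FPKM or more, those with GENCODE M21 transcripts up to 2000 bases had calls on the molar side in 29.1% of 3857 cases and on the incisor side in 1.69%. Above 2000 bases the shares were 10.5% and 7.5% of 8849. Of the chaperone genes, here with no minimum FPKM, 5 of 25 tested genes up to 2000 bases were called on the molar side and 1 on the incisor side, and of 57 longer ones 8 and 4 were. At 1 FPKM or more there were 19 short and 54 longer chaperone genes, all called genes among them. Hspb11 (608 bases), Dnajc24 (1197), Ahsa1 (1377), Dnajc9 (1631) and Dnajc30 (1661) are the short genes higher in molar, while Dnaja1 (5622) and Dnajc15 (6193) are long. Less the median of all rows of its length class, the log2 ratio (1 FPKM added) moved by over 1.5 times for 4 of the 18 called genes. It went from 2.93 to 1.86 for Hspb11, from 2.04 to 1.17 for Dnajc9 and from 2.41 to 1.53 for Ahsa1, and from -1.32 to -2.20 for Cct3. The other short genes, Dnajc24 and Dnajc30, went from 3.59 to 2.72 and from 4.97 to 4.09. Values of the longer Cct8 (2.57), Cct4 (2.27) and Dnajc19 (5.35) moved by 0.13, the median of their class. The part of length in the molar and incisor calls was not tested.

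**Figure D5:**
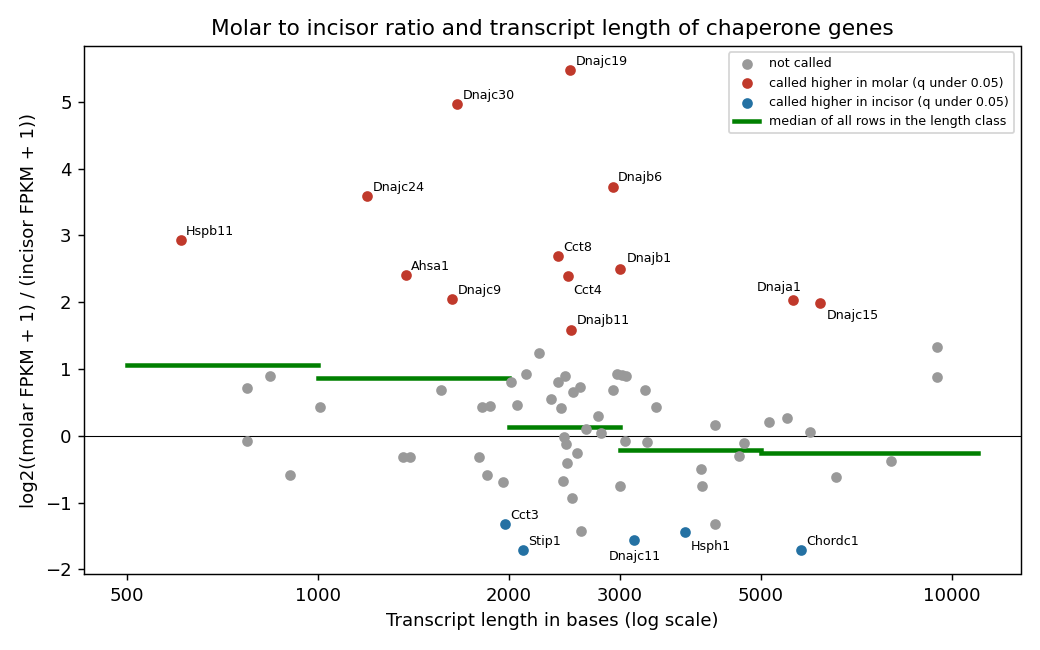
Each point is a chaperone gene with at least 1 FPKM in either tissue, with transcript length in bases on a log scale across and the log2 of molar over incisor FPKM, with 1 added to each, up; green lines are medians of all rows in 5 length classes, the outer classes drawn only as far as the plot. The line falls from 1.06 for the shortest transcripts to -0.26 for the longest, and called chaperone genes lie at a range of lengths.

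Markers of other cells and of handling were called as well, in shares that differed between lists. Over all tested rows, 11.9% were called on the molar side and 4.28% on the incisor side. Of 22 immediate-early genes, which respond quickly to stress and handling, 16 were called on the molar side and none on the incisor side, with summed FPKM of 907 in incisor and 10293 in molar. Of 15 endothelial markers, 13 were called on the molar side and none on the incisor side (sums of 22.7 and 328), with Cldn5 and Sox17 at 0 in incisor. Of 13 dental epithelial markers, 9 were called on the incisor side and none on the molar side (sums of 23528 and 2641), and proliferation genes higher in incisor in 4 of 14 and higher in molar in none (685 and 512). Amelx alone held 20642 FPKM of the epithelial sum in incisor and 1937 in molar. Of 14 macrophage markers, 6 were called on the molar side and 2 on the incisor side (6316 and 10614), and erythroid markers higher in molar in 4 of 6 tested (6.01 and 204), with Klf1 at 0 in incisor. Odontoblast markers were called higher in incisor in 2 of 10 (20%) and higher in molar in 1 (735 and 484). The molar share, 10%, was near that of all rows. Pericyte markers, which should define the sorted cells, were all above 0 in both tissues. Of these 12, 5 were called higher in incisor (41.7%) and 2 higher in molar (16.7%), with sums of 736 and 451. Rgs5 alone held 537 FPKM of the pericyte sum in incisor and 127 in molar. The part of these cells and of handling in the chaperone values was not tested.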

How the data were processed

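RNA of FDG-positive pulp cells was sequenced from 4 libraries, 2 per tissue, grouped by title. Per the submitters' processing notes, Trim Galore, HISAT2 and edgeR were used with the mm10 build, with the table's tool, scaling and annotation not given in the sources used here. A single deposited table holds 1 FPKM per tissue, made by the authors from the combined libraries, with the authors' log2 fold change (molar over incisor, no pseudocount), a test score, and the authors' p-value and q-value. The description labels tie its columns to the tissues. Starts were moved by 1 base to be 1-based. The authors tested 18770 of 24216 rows, and 2 rows marked as failed or holding too much data were left out. The smallest q, 0.000664, was shared by 1414 rows, so it does not rank them. With no value per library, no test of samples could be run. The authors' p-values rest on these libraries alone, whose spread may be technical, and how they were computed is not given.

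Calls were counted at q under 0.05, and medians of log2((molar + 1)/(incisor + 1)) were taken over genes at 1 FPKM or more for families of at least 5 such genes, with Python 3.11.15 and pandas 2.3.3, tested on simulated data. Transcript lengths and 32-base words come from GENCODE M21, for each gene from its longest RefSeq-linked transcript, or else its longest transcript. Named are all called members, the extremes of each family and the classical genes. Members and lists were chosen with earlier results of these data known. The list of 22 HSF1 targets, Ubb included, leaves out a further gene first planned for it, which is not reported here. Other thresholds, minimum values, pseudocounts and scalings were tried.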

Additional observations from a re-analysis of the deposited data

How the results depend on the processing

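No paired analysis was possible because the table holds 1 combined value per tissue, and for the same reason no library could be left out. All 18 called chaperone genes kept their direction with the median of all genes set to 0 (a shift of 0.22 on the log2 scale), at equal FPKM totals (0.59) and less the median of their length class, an alternative chosen after seeing the data. With q under 0.01, 12 members were higher in molar and 0 higher in incisor, where 7 had an authors' p under 0.05, 1 other chaperone was higher in incisor, and 0 HSF1 targets were, where 4 had an authors' p under 0.05. The other counts, under q of 0.1, the authors' own mark or a minimum of 5 FPKM, lay within 1.5 times. Family medians were less stable, and the cause was not tested. With the median of all genes set to 0 they were -0.035 for small heat shock proteins, -0.11 for Hsp70 and Hsp110, 1.03 for J-domain class B, 0.23 for class C, -0.23 for TRiC, -1.02 for co-chaperones and 0.20 for all members. At equal FPKM totals they were -0.26, -0.46, 0.69, -0.093, -0.59, -1.30 and -0.093 in the same order. Less the length class they were -0.79 for small heat shock proteins, 0.25 for Hsp70 and Hsp110, 1.12 for class B, 0.32 for class C, -0.43 for TRiC and 0.13 for all members. The median of the HSF1 targets reversed at equal FPKM totals (-0.16) and less the length class (-0.077), and that of the other chaperones kept its direction in all 7 alternatives, between 0.078 and 0.76, all chosen after seeing the data. A minimum of 5 FPKM gave -0.31 for small heat shock proteins, 0.72 for class C and -0.30 for TRiC, and no minimum gave 0.81 for class B, 0.25 for class C, 0.12 for TRiC and 0.25 for all members. The TRiC family here holds 10 rows, including the relatives Cct6b, which reached 1 FPKM, and Cct8l1, which did not. Its median was -0.012 at 1 FPKM or more, and -0.30 over the 8 subunits alone. A pseudocount of 0.1 gave 1.34 for class B and -0.998 for co-chaperones, and one of 5 gave 0.66 for class B, 0.21 for class C, -0.50 for co-chaperones and 0.15 for all members.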
